A study of Homo sapiens with 13 samples.

Results

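Broad LEF1 regions are stretches of the genome where the LEF1 signal was called as a peak of 2000 bp or more in most libraries, whatever the treatment. They were chosen by keeping, in each of the 6 LEF1 peak lists, the peaks of at least 2000 bp, merging those that overlapped by 1 bp or more, and retaining the merged regions that held such a peak in at least 4 of the 6 lists. Of 11994 merged regions with a peak of this width in at least 1 list, 3621 met the rule, and they covered 14.7 Mb. The measured LEF1 widths chose these regions, so LEF1 widths, strengths and ranks there are a description and were not tested.

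The data were CUT&RUN peak lists from Nalm6, an established human cell line of B-cell acute lymphoblastic leukaemia, grown in medium with charcoal-stripped serum. In CUT&RUN an antibody tethers a nuclease to chromatin, and the fragments it cuts free are sequenced. Antibodies to LEF1 and to TCF7L2 were each used on control cells and on cells kept for 24 h in 5 µM prednisolone, a synthetic glucocorticoid drug, with 3 replicates from independent experiments in each of the 4 groups. One label gives the controls no treatment and the protocol names a vehicle, so they are called controls. The series sets glucocorticoid signalling against canonical Wnt signalling. No transgene, Cre or deletion is named in the labels. An IgG sample was not analysed here.

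LEF1 and TCF7L2 belong to the TCF/LEF family of HMG-box DNA-binding proteins, the nuclear effectors of canonical Wnt signalling. They recruit beta-catenin when the pathway is on and Groucho/TLE co-repressors when it is off, and an HMG box bends the DNA it binds. Glucocorticoids act through the glucocorticoid receptor, itself a DNA-binding transcription factor, and are a mainstay of treatment for acute lymphoblastic leukaemia. Wide stretches of transcription factor signal are often seen where several binding sites lie close together, as in clustered enhancers.

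The lists held between 128863 and 395786 peaks, and they differed in the shortest peak they contained. Control 1 and prednisolone 2 and 3 of LEF1 had a shortest peak of 164 to 165 bp, and control 2 and 3 and prednisolone 1 of LEF1 one of 187 to 197 bp. The TCF7L2 lists with the same replicate numbers fell into the same sets of libraries, with 193 to 201 bp in the first and 158 to 167 bp in the second. The files give no read depth, which limits what can be said of any single library. TCF7L2 peaks were weaker as called: a −log10 q-value of 5 or more was reached by 21764 to 27309 peaks of a LEF1 list and by 1271 to 3524 of a TCF7L2 list. Because lists differed in length, TCF7L2 was read mainly from the 20000 peaks with the highest −log10 p-value in each list, called top peaks below.

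For comparison, all LEF1 regions were defined by merging the LEF1 top peaks and keeping regions with one in at least 4 of the 6 lists, which gave 14903. The narrower LEF1 regions were the 7528 of these that touched no LEF1 peak of 2000 bp or more in any full list. All coordinates are on hg19, and no hg19 sequence or gene annotation was used here, so no region is assigned to a gene, promoter, exon or intron and no sequence or motif is given.

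The broad regions were present as LEF1 peaks in every LEF1 library. All 3621 held a LEF1 peak of some width in all 6 lists, 1664 held one of 2000 bp or more in all 6, 957 in 5 and 1000 in 4. The merged regions ran from 2151 to 24149 bp, with a median of 3638 bp, against a median of 1515 bp for the narrower regions. The median over the lists of the widest LEF1 peak in a region was 2622 bp for the middle region, and 117 regions reached 5000 bp or more.

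The region with the widest LEF1 peaks was chr4:42634118-42648109. Its widest LEF1 peak was 7052, 5612 and 11026 bp long in the control libraries and 10186, 8174 and 12951 bp in the prednisolone libraries. LEF1 peaks together covered 13081, 12561 and 13517 bp of it in control and 12581, 12775 and 12951 bp after prednisolone. The length of the widest peak thus varied with how the caller split the signal, while the bases covered stayed between 12561 and 13517 bp. It also ranked between 7 and 28 in all 6 LEF1 lists, where rank 1 is the peak with the highest −log10 p-value.

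The next widest were chr4:146407830-146420322, chr5:163721718-163731348, chr5:133181645-133190627, chr11:36586677-36596826 and chr4:40191402-40204544. Width and strength did not go together in all of them. At chr4:146407830-146420322 LEF1 covered 11284, 11572 and 11379 bp in control and 11660, 11945 and 11727 bp after prednisolone, yet its best peak ranked between 2337 and 17699. The 2 groups did not overlap there but lay close together. At chr4:40191402-40204544 the bases covered lay between 11233 and 13003 bp with overlapping groups, and the ranks between 442 and 2396.

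The longest merged region was chr21:39844595-39868743, named after its values were seen. Over its 24149 bp LEF1 peaks covered 20098, 20624 and 21903 bp in control and 22604, 20078 and 19226 bp after prednisolone, so the groups overlapped. Its LEF1 summits lay up to 15607 bp apart between lists. A region of this length is several adjoining peaks rather than a single one.

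At the limit of the rule, chr2:65576641-65579022 and chr3:17234721-17238221 were just inside, with a fourth-widest peak of 2000 bp, and chr1:182269023-182271818 and chr10:12429569-12432370 just outside, with 1999 bp. The least wide members were chr17:67682274-67684506, chr6:33039494-33042453, chr10:11217659-11222732 and chr3:196983029-196987432. At chr17:67682274-67684506 the widest LEF1 peak was 2087, 2212 and 1124 bp in control and 2001, 2002 and 1064 bp after prednisolone. The short values there came from lists that split the region in pieces, since LEF1 still covered 1864 and 1778 bp in those libraries.

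Broad regions were often called as more than 1 peak. In a given LEF1 list, 37.3% to 58.4% of them held at least 2 LEF1 peaks, with 1.67 ± 0.169 peaks per region (mean ± SD over the 6 lists). The same share was 22.3% to 36.97% of all and 8.4% to 16.5% of narrower LEF1 regions. Longer regions have more room for several peaks, and these shares were not corrected for region length. The strongest LEF1 position was also less fixed: the summits of the best peak in the 6 lists spread over a median of 374 bp, against 203 bp in the narrower regions. In 1144 broad regions, 31.6%, the summits lay more than 1000 bp apart, so that different libraries put the summit at different places of the same region.

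Around the LEF1 summit the broad regions had wide shoulders in both treatments. At 1000 bp from the summit a LEF1 peak covered 73.2% ± 3.35 of them in control and 71.2% ± 4.15 after prednisolone (SD, n = 3 each), against 14.6% ± 2.61 and 12.9% ± 4.08 of the narrower regions. At 4000 bp the share was still 24.9% ± 2.19 and 22.4% ± 3.69 for the broad regions, and 13.5% ± 1.39 and 12.4% ± 2.76 for the narrower. LEF1 widths made this contrast and it is given as a picture of the members. The control and prednisolone curves of LEF1 overlapped within the spread of the libraries at each of these distances.

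**Figure D1:**
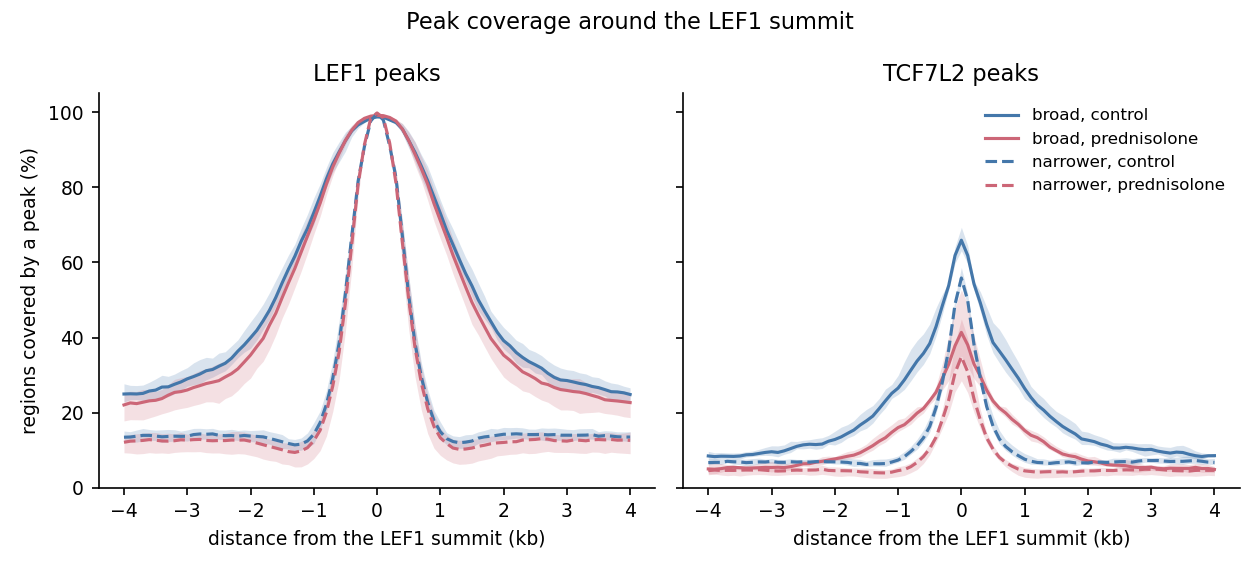
Share of regions covered by a LEF1 peak (left) or a TCF7L2 peak (right), in percent, against the distance from the LEF1 summit in kb; lines are means of 3 libraries, bands their range, solid lines the 3621 broad and dashed lines the 7528 narrower LEF1 regions. LEF1 covers about 73.2% of broad regions 1000 bp from the summit in control, and the TCF7L2 curves are lower after prednisolone at the summit, 41.4% against 65.9%.

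Broad regions took in a large part of the strongest LEF1 peaks. Of the LEF1 peaks ranked 1 to 100, 60.2% ± 4.17 lay in a broad region, of ranks 101 to 1000 52.0% ± 2.00, of ranks 1001 to 5000 32.1% ± 1.18, and of ranks 5001 to 20000 11.8% ± 0.525 (SD, n = 6 lists). Strength was not a condition of the rule, and 436 broad regions, 12.04%, had a LEF1 top peak in fewer than 4 lists. In 25 no list had one.

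The best ranked broad region by its worst LEF1 rank was chr8:43094373-43097510, at rank 1 in 5 lists and rank 3 in prednisolone 3. Its fold over the caller's background, a value of the authors, was only 2.53, 2.37 and 2.75 in control and 2.18, 2.16 and 1.53 after prednisolone. Of the 442 broad regions with a median LEF1 rank of 1000 or better, 2 had a median fold under 3, and over all broad regions 113, 3.12%, had one. Whether regions of known artefact signal were removed is not given in the sources used here.

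Other leading regions combined a high rank with a high fold. At chr9:140343070-140347259 the LEF1 fold was 35.5, 23.2 and 20.1 in control and 21.9, 26.5 and 21.2 after prednisolone, with ranks from 2 to 5. At chr11:353397-356392 it was 28.0, 20.5 and 23.3 in control and 30.8, 27.5 and 27.3 after prednisolone, with ranks from 11 to 30. In fold and rank the groups overlapped at both loci. In bases covered by LEF1 they did not overlap at chr9:140343070-140347259, with 3797, 3165 and 3624 bp in control and 3949, 4097 and 4156 bp after prednisolone. The regions chr22:29312552-29316296 and chr1:101773762-101779387 ranked between 7 and 34 in the 6 lists.

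The number of peaks of 2000 bp or more differed between libraries in different ways for the 2 factors. For LEF1 it was 4327, 5467 and 7435 in control and 6509, 5302 and 4034 after prednisolone, so the groups overlapped. The order followed the shortest peak of the list: 4034 to 5302 wide peaks in the lists with a shortest peak of 164 to 165 bp and 5467 to 7435 in those with 187 to 197 bp. Within these sets the prednisolone minus control difference was 0.10 and 0.03 on the log2(number + 1) scale, against −0.11 over all 6.

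For TCF7L2 the wide peaks numbered 847, 536 and 562 in control and 336, 356 and 320 after prednisolone. All 3 prednisolone libraries were below all 3 control libraries, with means of 648 ± 173 and 337 ± 18.0 (SD, n = 3 each). The difference was −0.91 on the log2(number + 1) scale, with an exact two-sided permutation p of 0.1, the smallest that 3 libraries against 3 allow, so it could not pass 0.05. Within the sets of libraries with a like shortest peak it was −0.71 and −1.32. The separation also held for peaks of 1500 bp or more, with 2190, 1309 and 1414 in control and 840, 1003 and 716 after prednisolone. It did not hold at 1000 bp: such peaks numbered 8588, 4693 and 4742 in control and 3367, 5986 and 2410 after prednisolone, and these groups overlapped. TCF7L2 peaks with a −log10 q-value of 5 or more were also fewer, 2401, 2450 and 3524 in control and 2249, 1364 and 1271 after prednisolone. Fewer wide peaks and weaker libraries cannot be told apart here.

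**Figure D2:**
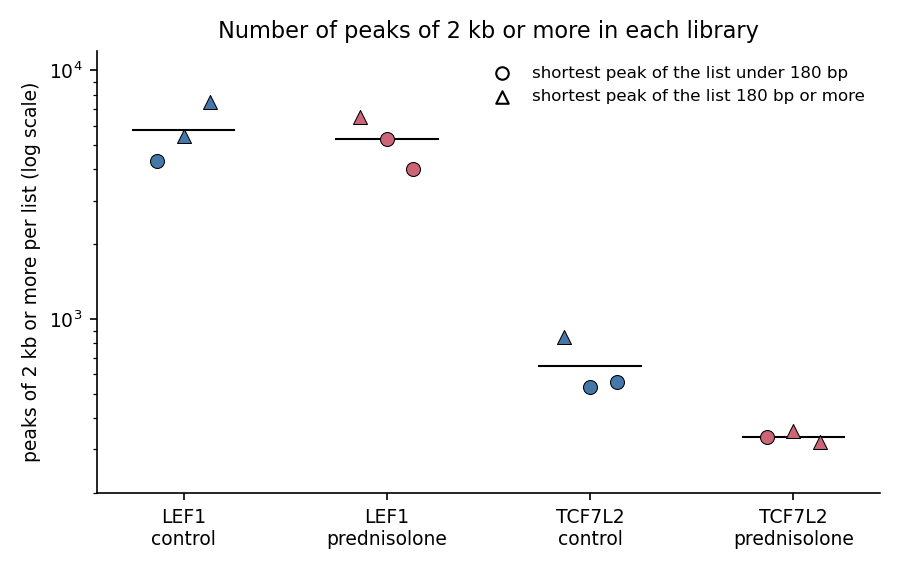
Number of peaks of 2000 bp or more in each of the 12 lists on a log axis; points are libraries, horizontal lines group means, and the symbol gives the shortest peak of the list. LEF1 control and prednisolone libraries overlap between 4034 and 7435, while the TCF7L2 prednisolone libraries at 320 to 356 lie below the controls at 536 to 847.

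Most broad LEF1 regions held no wide TCF7L2 peak, but more of them did than of other LEF1 regions. In control libraries 353, 173 and 169 broad regions held a TCF7L2 peak of 2000 bp or more, and after prednisolone 81, 70 and 81 did. These were 6.40% ± 2.90 of the broad regions in control (SD, n = 3), where the same mean was 2.29% of all and 0.642% of narrower LEF1 regions. In 3102 broad regions, 85.7%, no TCF7L2 list held one, against 94.9% of all and 98.6% of narrower regions, and in 21 all 6 lists did. Broad regions are longer and rank higher in LEF1, and these shares were corrected for neither. Seen from the other side, 30.6% to 41.8% of the wide TCF7L2 peaks of a control list and 19.9% to 25.3% of those of a prednisolone list lay in a broad LEF1 region.

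At the 2000 bp limit most wide TCF7L2 regions lay outside the broad LEF1 regions. The same rule applied to the TCF7L2 lists gave 271 regions, of which 57, 21.0%, overlapped a broad LEF1 region. These were 1.57% of the broad LEF1 regions. The limit acted on lists of unlike strength, and the overlap expected from position alone was not computed. A LEF1 peak of any strength in all 6 full lists was present in 189 of the 271, 69.7%, and 103, 38.0%, overlapped one of all LEF1 regions. The strongest TCF7L2 peaks fell largely outside: 4.33% ± 0.577 of ranks 1 to 100 in the control lists lay in a broad LEF1 region (SD, n = 3), although 79.7% of these 100 were 2000 bp or wider. The share was higher further down the control lists, 17.1% ± 3.22 of ranks 101 to 1000 and 20.95% ± 1.85 of ranks 1001 to 5000.

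One region wide in both factors in every list was chr4:109089250-109095642. LEF1 covered 5818, 6095 and 5401 bp in control and 6275, 6059 and 6011 bp after prednisolone. TCF7L2 covered 6145, 5832 and 5522 bp and 5396, 5724 and 5968 bp of the same 6393 bp, so neither factor separated the treatments. The TCF7L2 fold there was 38.2, 16.1 and 34.6 in control and 32.4, 32.3 and 27.0 after prednisolone.

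A neighbour of the widest LEF1 region, chr4:42655893-42660924, had the best worst TCF7L2 rank of all broad regions. It ranked 50, 83 and 64 among TCF7L2 control peaks and 69, 47 and 71 after prednisolone, but only between 1476 and 5061 among LEF1 peaks. TCF7L2 covered 4532, 4135 and 3986 bp in control and 2789, 2433 and 3300 bp after prednisolone. The treatment groups of TCF7L2 did not overlap in bases covered, while they did in rank.

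The region chr3:187455566-187464870 showed the same kind of imbalance, with TCF7L2 ranks from 65 to 112 and LEF1 ranks from 2510 to 8143. Its TCF7L2 bases were 7630, 7004 and 7153 bp in control and 6806, 5852 and 5372 bp after prednisolone. At chr5:66299300-66302362 TCF7L2 ranked between 102 and 192 and LEF1 between 6745 and 20436. TCF7L2 ranked between 127 and 185 at chr10:115718739-115722984, and there LEF1 reached ranks from 118 to 3315.

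At chr1:19224894-19229948 the TCF7L2 ranks lay between 54 and 113, and TCF7L2 covered between 4111 and 4561 bp in the 6 libraries. The LEF1 rank was 3431, 2942 and 4210 in control and 1961, 4462 and 122807 after prednisolone. In the last library LEF1 was called as 1 peak of 4776 bp with a fold of 1.40, against 9.42 to 13.1 in the other 5. This region met the rule with 4 lists, prednisolone 3 among them.

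Some TCF7L2 signal was called at almost every broad LEF1 region. Only 2 regions, chr13:24421342-24423902 and chr14:95938369-95941098, had no TCF7L2 peak in any of the 6 full lists, and 2148, 59.3%, had one in all 6. Over all LEF1 regions 2.62% had none and 34.2% had one in all 6, and over the narrower regions 4.78% and 20.7%. Broad regions are longer and have more room for a peak of these long lists, and the shares were not corrected for length. At chr13:24421342-24423902 the LEF1 ranks were between 7841 and 26669, and at chr14:95938369-95941098 between 14769 and 220404. Both met the rule with 4 lists and had LEF1 folds under 5. The full lists end at an unadjusted p-value of 0.05, so a peak in them can be weak.

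Among top peaks, 55.6%, 55.2% and 57.1% of broad regions held a TCF7L2 top peak in the control libraries and 44.2%, 32.7% and 36.0% after prednisolone. All 3 prednisolone values were below all 3 control values. Within the libraries of like shortest peak, control 1 at 55.6% stood against prednisolone 2 and 3 at 32.7% and 36.0%, and control 2 and 3 at 55.2% and 57.1% against prednisolone 1 at 44.2%. In the narrower regions the shares were 30.0%, 31.0% and 33.0% in control and 25.5%, 16.5% and 16.6% after prednisolone, also without overlap. The lower share was therefore not particular to the broad regions. The −log10 q-value at the 20000th TCF7L2 peak was 1.00, 0.68 and 0.97 in control and 0.61, 0.61 and 0.39 after prednisolone. The prednisolone top peaks thus reached down to weaker calls. The part of this in the lower share was not tested.

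**Figure D3:**
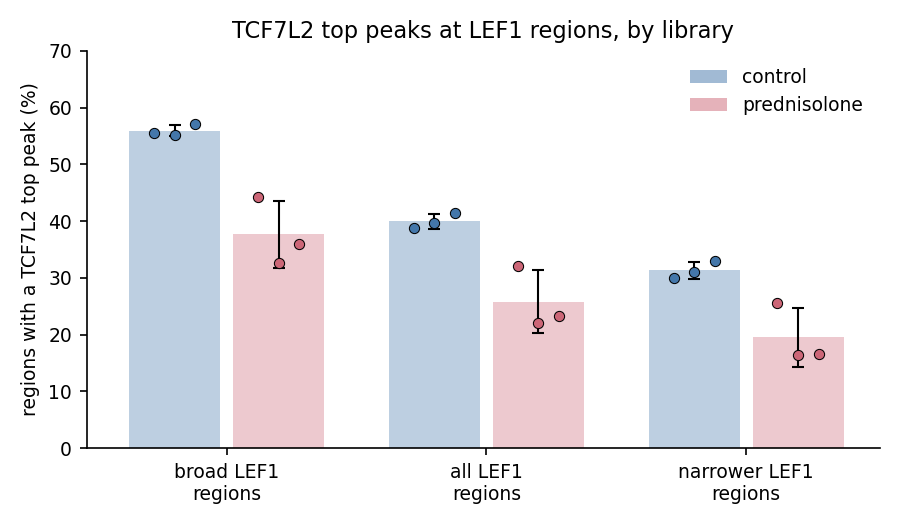
Share of broad, all and narrower LEF1 regions with a TCF7L2 top peak, in percent, in each library; points are libraries, bars group means and error bars the SD (n = 3). In broad regions the controls lie at 55.2% to 57.1% and the prednisolone libraries at 32.7% to 44.2%, and each of the 3 sets of regions shows no overlap between treatments.

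A TCF7L2 top peak in all 3 control lists was present in 1168 broad regions, 32.3% (exact 95% Clopper-Pearson interval 30.7 to 33.8), and in all 3 prednisolone lists in 566, 15.6% (14.5 to 16.9). The same shares were 13.3% (12.5 to 14.1) and 6.32% (5.78 to 6.90) in the narrower regions, and 19.4% and 9.22% over all LEF1 regions. The intervals cover counting error only. Broad regions are longer and offer more room for an overlap. In a fixed window of 500 bp at the LEF1 summit the control shares were 23.4% for broad and 12.6% for narrower regions, and the prednisolone shares 10.2% and 6.06%. The window was centred on the median position of the best LEF1 summits in the 6 lists. Where these summits lie far apart the centre can fall between them, and in 31.6% of broad regions they lay more than 1000 bp apart. How far this lowers the window shares of the broad regions was not tested.

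LEF1 strength moved with width, and at like LEF1 rank the window shares of broad and narrower regions were nearer to each other. For regions with a median LEF1 rank of 1 to 1000 the control share in the window was 58.6% in 442 broad and 56.3% in 151 narrower regions. At ranks 1001 to 2500 it was 33.0% and 35.6%, and at ranks 2501 to 5000 26.7% and 20.5%. For ranks 5001 to 10000 it was 16.6% and 13.7%. Over whole regions, where length also counts, the control shares at ranks 1 to 1000 were 67.2% in broad and 56.3% in narrower regions. They were 45.7% and 36.6%, 36.1% and 21.4%, and 25.4% and 14.3% in the classes that followed, up to rank 10000. The part of LEF1 strength in the difference between broad and narrower regions was not tested further.

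TCF7L2 top peaks were more frequent at the wider members. The control share was 23.4% (21.2 to 25.6) in the 1484 regions whose median widest LEF1 peak was under 2500 bp, 30.9% (28.0 to 33.9) from 2500 to under 3000 bp and 38.3% (34.8 to 41.8) from 3000 to under 4000 bp. It reached 53.0% (46.8 to 59.2) in 264 regions from 4000 to under 5000 bp and 70.1% (60.9 to 78.2) in the 117 regions of 5000 bp or more. After prednisolone the share went from 10.3% in the least wide to 34.2% in the widest class. Wider regions offer more room, and in the fixed 500 bp window the gradient was smaller, from 19.3% to 39.3% in control and from 8.22% to 15.4% after prednisolone. The LEF1 summits of the lists spread over a median of 343.5 bp in the least wide and 2010 bp in the widest class. The window centre is thus less sure in the widest class. Across the 3621 regions, Spearman's rho of LEF1 width with TCF7L2 bases covered was 0.48 in control and 0.35 after prednisolone, a description only, since wider regions also hold more bases and rank higher in LEF1.

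**Figure D4:**
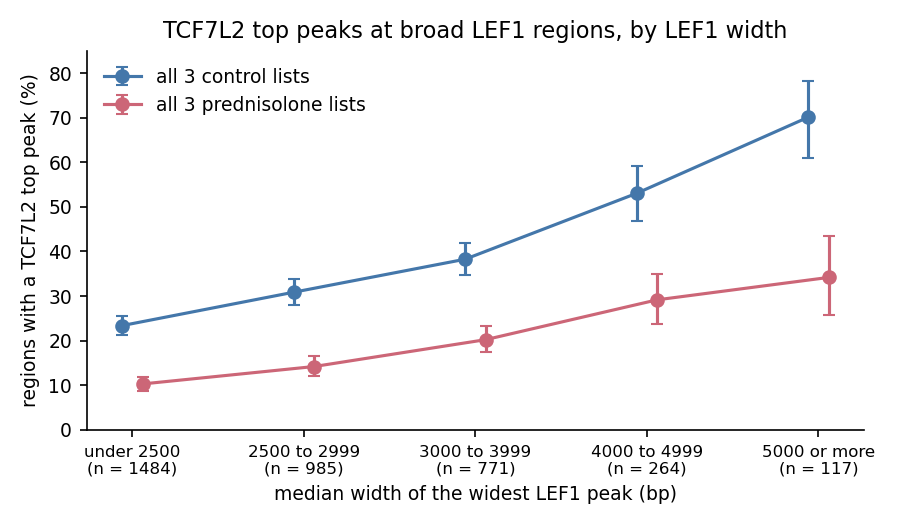
Share of broad LEF1 regions with a TCF7L2 top peak in all 3 lists of a treatment, in percent, by the median width of the widest LEF1 peak in bp; error bars are exact 95% intervals for counting error. The control share goes from 23.4% in the least wide to 70.1% in the widest class, and the prednisolone share from 10.3% to 34.2%.

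The TCF7L2 peaks inside broad regions were short and often several. In control lists the middle region had 1328, 1148 and 1158 bp covered by TCF7L2, and after prednisolone 768, 571 and 583 bp. A share of 70.1% ± 3.18 of broad regions held at least 2 TCF7L2 peaks in control and 44.7% ± 11.1 after prednisolone (SD, n = 3 each). Over all LEF1 regions the same means were 35.1% and 19.98%, and over the narrower regions 14.9% and 7.26%. The mean share was thus lower after prednisolone in each of these sets. These shares were read from full lists and were corrected neither for library nor for region length. The TCF7L2 summit was close to the LEF1 summit in many but not all: the median distance was 163 to 327 bp by library, and 43.9% to 59.4% lay within 250 bp. In the narrower regions 78.9% to 84.9% did. The narrower regions had a median length of 1515 bp against 3638 bp, which leaves less room for a distant summit. This contrast was not corrected for region length.

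TCF7L2 covered fewer bases after prednisolone in a large group of the broad regions. In 1396, 38.6%, all 3 prednisolone libraries were below all 3 control libraries, where 25.5% of all LEF1 regions met the same pattern. In 76, 2.10%, they were all above, against 1.94% of all LEF1 regions. For a single region the exact p of such a pattern is 0.1, so none passes 0.05 alone. The bases were read from full lists and were not scaled by library. These TCF7L2 lists held 389886, 329941 and 337092 peaks in control and 317316, 395786 and 144091 after prednisolone. The part of weaker or shorter prednisolone lists in the lower bases was not tested. A region with no TCF7L2 peak in some control list cannot meet the first pattern, and such regions were fewer among the broad: of regions with a TCF7L2 peak in all 3 full control lists the shares were 42.8% of 3264 broad, 34.5% of 3961 narrower and 37.9% of 10046 LEF1 regions.

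The direction was the same within the libraries of like shortest peak. Between control 1 and prednisolone 2 and 3 the median difference in TCF7L2 bases was −659 bp and 84.7% of broad regions were lower after prednisolone. Between control 2 and 3 and prednisolone 1 it was −353 bp and 73.0% were lower. Over all LEF1 regions the same medians were −299 and −145 bp, with 70.8% and 64.6% lower. In the narrower regions 62.2% and 58.6% were lower, so the direction was not particular to the broad regions. The medians in bp also depend on region length. At chr21:39844595-39868743 TCF7L2 covered 12624, 7960 and 11039 bp in control and 5029, 6693 and 4629 bp after prednisolone, the largest difference of means in bp among the broad regions, while its LEF1 bases overlapped between treatments.

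At chr4:42634118-42648109, the widest region, TCF7L2 covered 10349, 8071 and 8370 bp in control and 5670, 5867 and 6159 bp after prednisolone. The groups did not overlap. The rank of its best TCF7L2 peak was 290, 448 and 465 in control and 474, 443 and 382 after prednisolone, so the ranks overlapped between treatments while the bases covered did not. At chr9:140343070-140347259 TCF7L2 bases and fold were both lower. TCF7L2 covered 3859, 3943 and 3249 bp in control and 2755, 1927 and 1735 bp after prednisolone, and its fold was 28.9, 39.6 and 38.1 against 13.6, 6.26 and 6.08. LEF1 went the other way there, with more bases covered in every prednisolone library than in any control library.

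Complete loss of a TCF7L2 top peak was less common. A loss was a top peak in all 3 control lists and in no prednisolone list, and 159 broad regions met it, 4.39%, against 3.70% of all LEF1 regions. The opposite, a gain, was met by 16, 0.442%, against 0.436%. Only a region with a top peak in all 3 lists of a treatment can meet either pattern, and more of the broad regions had one. Of regions with a top peak in all 3 control lists, 13.6% of 1168 broad, 21.8% of 1000 narrower and 19.0% of 2898 LEF1 regions lost it. Of those with one in all 3 prednisolone lists, 2.83% of 566 broad, 5.67% of 476 narrower and 4.73% of 1374 LEF1 regions had gained it. On this base both shares were lower in the broad regions, a difference that was not tested. A longer region offers more room for a top peak in the other treatment, which makes either pattern harder to meet. These shares were not corrected for region length, nor for the lower −log10 q-values at the 20000th peak of the prednisolone lists. Of the 159, 7 had no TCF7L2 peak in any full prednisolone list, and 76 had a weaker one in all 3. Of the 16 gained, 14 had a peak outside the top 20000 in each control list.

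The leading lost region was chr22:49302890-49310999. TCF7L2 covered 2807, 2798 and 3355 bp in control, with ranks of 375, 292 and 355, and 0 bp in each prednisolone list. LEF1 was narrower there too, at 6309, 7072 and 7854 bp in control and 4105, 5796 and 3994 bp after prednisolone, the largest LEF1 narrowing in bp among the broad regions without overlap. Its LEF1 rank was 27, 46 and 90 in control and 5202, 3659 and 2972 after prednisolone, so both factors separated the treatments without overlap.

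The other lost regions differed in LEF1. At chr4:176333775-176337689 the LEF1 rank was 1538, 2068 and 2463 in control and 25453, 40963 and 51970 after prednisolone, while LEF1 bases overlapped, at 2597, 3053 and 2645 bp and 2556, 3915 and 1233 bp. At chr16:11448268-11450986 LEF1 ranks overlapped, at 901 to 2787 in control and 1333 to 2634 after prednisolone, and TCF7L2 covered 1793, 1091 and 1549 bp against 269, 1124 and 0 bp. At chr12:113645127-113647549 and chr8:21325833-21331664 the TCF7L2 ranks of 1206 to 2391 in control were replaced by weak peaks ranked beyond 20000 in each prednisolone list.

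Among the gained regions, chr5:54204441-54210879 had more of both factors after prednisolone. LEF1 covered 2328, 2404 and 2169 bp in control and 6086, 5447 and 6021 bp after prednisolone, and its LEF1 rank went from 50564, 34048 and 23702 to 778, 152 and 270. TCF7L2 ranked 21463, 38802 and 132120 in control and 941, 3327 and 1218 after prednisolone. No library of one treatment overlapped those of the other in any of these values.

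At chr10:84673193-84675938 the LEF1 fold was 4.15, 7.40 and 7.50 in control and 19.9, 21.6 and 18.6 after prednisolone, and the TCF7L2 fold 3.14, 2.51 and 2.57 against 7.16, 5.64 and 5.88. At chr7:25658297-25661882 TCF7L2 covered 1391, 936 and 342 bp in control and 1711, 2252 and 1753 bp after prednisolone. At chr4:55992294-55995153 the LEF1 ranks overlapped, from 6524 to 17572 in control and from 853 to 15698 after prednisolone, although its TCF7L2 ranks did not. The fifth, chr1:68197541-68202448, had TCF7L2 ranks from 36487 to 235214 in control and from 2775 to 3934 after prednisolone. Its TCF7L2 bases overlapped and were fewer on average after prednisolone, at 1613, 1744 and 1524 bp in control and 1658, 1284 and 1288 bp.

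LEF1 itself separated the treatments in similar shares of the broad regions and of all LEF1 regions. Both sets required a LEF1 peak, wide or top, in at least 4 of the 6 lists. Regions with such a peak only in control lists or only in prednisolone lists were therefore left out. The shares compare these sets of regions and cannot show how much LEF1 changed after prednisolone. All 3 prednisolone libraries covered more bases than all 3 controls in 251 regions, 6.93%, against 7.49% of all LEF1 regions, and fewer in 436, 12.04%, against 11.0%. In rank within lists of 20000 peaks, 464 regions, 12.8%, were ahead after prednisolone, against 12.3%, and 479, 13.2%, were behind, against 14.2%. These shares were near those of all LEF1 regions, and after division by each library's median the wider and narrower regions numbered 338 and 327. When the libraries were set apart by their shortest peak instead of the treatment, 483 regions, 13.3%, had more bases in all 3 libraries with the longer shortest peak and 59, 1.63%, had fewer. Over all LEF1 regions these shares were 12.2% and 2.28%.

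Among the 251, the largest widening in bp was on chromosome 2. At chr2:214959787-214971511 LEF1 covered 4953, 4565 and 4689 bp in control and 10769, 10012 and 10062 bp after prednisolone, and its LEF1 rank was 14654, 8547 and 3681 against 946, 100 and 208. TCF7L2 covered 2200, 1577 and 1359 bp in control and 3538, 4688 and 3642 bp after prednisolone. Both factors were higher in every prednisolone library than in any control library.

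At chr8:36301456-36309431 LEF1 covered 4804, 3880 and 4558 bp in control and 6922, 7475 and 7723 bp after prednisolone, and TCF7L2 593, 1162 and 827 bp against 2726, 1972 and 3214 bp. At chr4:147287594-147294168 LEF1 covered 3187, 3394 and 3791 bp and 6185, 5857 and 6080 bp, while the TCF7L2 bases overlapped. LEF1 at chr7:150372356-150383934 covered 6645, 7231 and 7572 bp in control and 10690, 9760 and 8028 bp after prednisolone, and TCF7L2 overlapped there too.

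After the chromosome 22 region, the largest LEF1 narrowing in bp was at chr10:7546306-7552679, with 5761, 3959 and 5736 bp in control and 3508, 3144 and 2302 bp after prednisolone. Its LEF1 ranks overlapped, at 3788 to 9681 and 4426 to 6748. At chr12:27705971-27712405 LEF1 covered 5467, 5409 and 6309 bp and 4517, 2772 and 3498 bp, and TCF7L2 1749, 1343 and 2064 bp and 0, 413 and 994 bp. At chr4:109476602-109482949 and chr3:99821497-99825778 LEF1 and TCF7L2 bases were both lower in every prednisolone library than in any control library.

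The differences of the 2 factors after prednisolone were then set side by side in each broad region. Of the 251 regions with wider LEF1, TCF7L2 bases were all above control in 28, 11.2%, and all below in 51, 20.3%. Of the 436 with narrower LEF1, they were all above in 1, 0.229%, and all below in 229, 52.5%. In the 2934 regions in neither class the shares were 1.60% and 38.0%. Over all LEF1 regions the order was the same: 9.95% above and 14.2% below among 1116 with wider LEF1, and 0.856% and 36.9% among 1636 with narrower LEF1. TCF7L2 top peaks were lost in 41 of the 436, 9.40%, and gained in none, and lost in 4, 1.59%, and gained in 6, 2.39%, of the 251. Over all LEF1 regions they were lost in 7.64% and gained in 0.122% of the 1636 with narrower LEF1. Among the 1116 with wider LEF1 they were lost in 1.52% and gained in 1.79%, so the order was again the same.

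Across the 3621 regions Spearman's rho between the LEF1 and the TCF7L2 difference in bases was 0.27, and it was 0.19 over the 7528 narrower regions. Within libraries of like shortest peak it was 0.17 for control 1 with prednisolone 2 and 3, and 0.19 for control 2 and 3 with prednisolone 1. These are descriptions over regions, which share the libraries. The LEF1 and TCF7L2 libraries have no sample in common, but the labels do not say whether those with the same replicate number came from the same cells. The part of cell material or library strength in this relation was not tested.

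**Figure D5:**
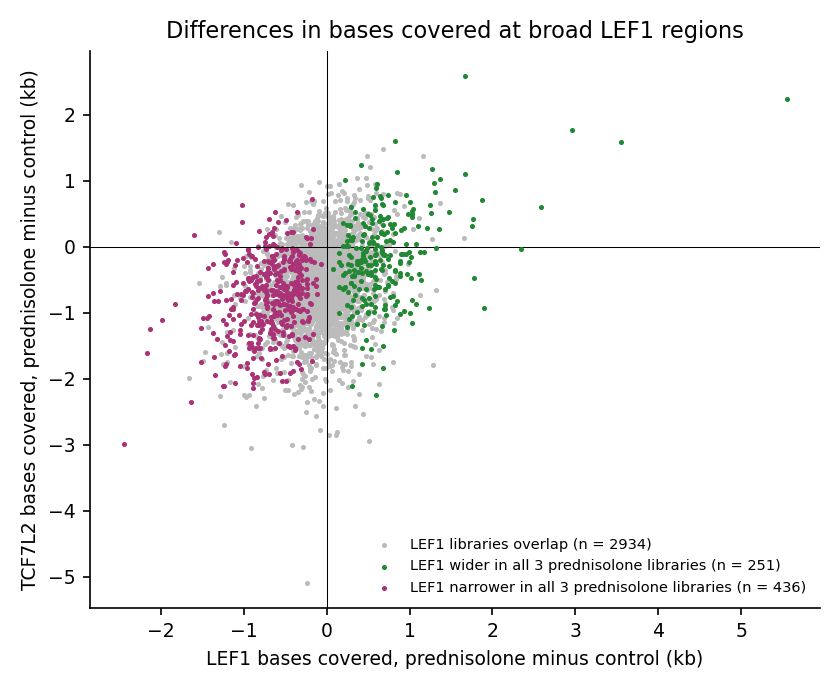
Difference in bases covered by TCF7L2 peaks against that by LEF1 peaks, prednisolone minus control group means in kb, for the 3621 broad LEF1 regions; colours mark the 251 regions with wider and the 436 with narrower LEF1 in all 3 prednisolone libraries. Most points lie below 0 on the TCF7L2 axis, and those with wider LEF1 reach above it more often than those with narrower LEF1, 11.2% against 0.229% by non-overlapping libraries.

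The broad regions were spread over the chromosomes unevenly. Chromosomes 16 and 19 held 70 and 42 of them, 1.93% and 1.16%, against 3.60% and 2.99% of the narrower regions. Chromosomes 4 and 13 held 206 and 138, 5.69% and 3.81%, against 4.14% and 2.52%. These shares are not corrected for chromosome length or gene content.

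Many had another broad region close by. The gap to the next broad region was 20 kb or less in 1238, 34.2%, where 25.5% of the narrower regions had another narrower region that close. Broad regions linked by such gaps formed 19 chains of at least 5 members. The longest had 8 members over 71.3 kb at chr15:94772011-94843286, and chains of 7 lay at chr12:104849239-104915579 and chr2:134987564-135051034. A chain of 6 at chr10:7512436-7556616 contained the narrowed region on chromosome 10 described above.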

How the data were processed

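The authors deposited 1 peak list per sample for 12 of the 13 samples, and the MACS2 caller and the hg19 build are named in the submitters' processing notes. The deposited fold ratio of a peak is over the caller's background, as the authors computed it with MACS2. The deposited −log10 values of the p-value and of the q-value are the authors' output of the same caller. Peak values of the caller were used within a list only, for ranking, filtering and description. The aligner, the MACS2 version, the control library and any removal of artefact regions are not given in the sources used here. The lowest −log10 p-value was 1.30, a p-value of 0.05.

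The members, lists and comparison regions were chosen with earlier results of these data known. Peaks were merged and counted in Python 3.11.15 with numpy 2.4.6, pandas 2.3.3 and scipy 1.17.1, and figures were drawn with matplotlib 3.10.9; the code was tested on simulated lists. Overlap meant 1 bp or more. Bases covered are those of a region under any peak of a full list. Ties in p-value and fold at the limit of 20000 were broken by chromosome, then by position, which in TCF7L2 control 2 and prednisolone 1 and 3 left out 7881, 8385 and 3399 equal peaks. No pair of lists shared more than 3 identical intervals of 2000 bp or more. The 3 replicates per group set the precision.

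The regions named are the 6 with the widest LEF1 peaks, the 4 least wide, the 6 with the best worst rank in each factor, those with no TCF7L2 peak, up to 5 each with TCF7L2 lost or gained and with LEF1 wider or narrower, and those at the limit of the rule; 1 more, on chromosome 21, was added after its values were seen. Alternatives were other widths, list counts, q-value limits and list lengths, a replicate block and each library left out. The planned motif, promoter and gene list steps needed an hg19 sequence and annotation, not used here, and were not run.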

Additional observations from a re-analysis of the deposited data

How the results depend on the processing

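The number of broad regions depended on the rule: 7916 at 1500 bp, 968 at 3000 bp and 1664 with a wide peak in all 6 lists, against 3621. Leaving out each LEF1 library in turn gave 2809 to 3140, with a wide peak still needed in 4 lists. The TCF7L2 difference in wide peaks kept its sign under every alternative, between −1.03 and −0.70 without each library in turn, and no p was under 0.1; at 1000 bp it was −0.66 with an exact permutation p of 0.3, and the groups overlapped. With a replicate block it was −0.91 with an exact permutation p of 0.25, the smallest 3 pairs allow. Same-numbered libraries had correlations of their deviations from −0.090 to −0.011, so the numbers were not taken to pair them.

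The share of broad regions with TCF7L2 in all 3 control and all 3 prednisolone lists, 32.3% and 15.6% above, was 90.1% and 62.1% from full lists, 6.46% and 2.21% where a −log10 q-value of 5 or more was required, and 20.6% and 11.7% from 10000 top peaks. It was 41.2% and 20.8% for regions wide in all 6 lists, 46.5% and 24.3% at 3000 bp, and 23.4% and 10.2% within 250 bp of the LEF1 summit. Without each library in turn, which asks for 2 lists in place of 3, it was 39.8% to 40.9% and 19.99% to 23.8%. The narrower regions with a LEF1 top peak in all 6 lists had 19.3% and 8.36%, where broad regions so limited had 40.7% and 19.8%. The control share was the higher in each case.

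Lost and gained TCF7L2 peaks, 159 and 16 above, numbered 80 and 2 from full lists, 81 and 2 under that q-value limit, and 7 and 0 where absence from the other treatment's full lists was asked for. With 10000 top peaks 29 were gained. Without each library in turn there were 214 to 329 lost and 27 to 49 gained, over 1.5 times the counts above in each case but the 214 lost without prednisolone 2. Regions with wider LEF1 numbered 328 to 494, and with narrower LEF1 506 to 938, without each LEF1 library in turn. The wider passed 1.5 times without control 3 (494) or prednisolone 3 (492), and the narrower without control 1 (780), control 2 (663) or prednisolone 1 (938); with fewer libraries the pattern is easier to meet. Divided by each library's median, 338 were wider and 327 narrower, so the excess of narrower over wider regions did not hold there. A random choice among equal peaks, the window at the summit and the limit to top peaks in all 6 lists were chosen after seeing the data. The number of libraries, 3 per group, and the weak TCF7L2 signal limit these counts: the −log10 q-value at the 20000th peak was 0.39 to 1.00 in the TCF7L2 lists and 5.49 to 6.62 in the LEF1 lists.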
